A study of Danio rerio with 18 samples.

Results

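Solute carrier transporters, the large superfamily of membrane proteins that move small molecules and ions without splitting ATP, were followed in zebrafish embryos with and without knockdown of cardiac troponin T2. The members were the probe sets of an Affymetrix zebrafish array whose deposited annotation contained the words "solute carrier". The genes slc25a37, slc11a2, slc4a1a and slc3a2b and any probe set annotated with GABA were left out. Of 15502 probe sets, 30 carried the words, 3 of them belonged to slc25a37 or slc3a2b and 0 mentioned GABA, which left 27 probe sets from 25 transcript clusters. Of these, 14 had a zebrafish gene symbol, for 12 genes, and 13 were known only by the similarity of their sequence to a human protein. The latter are written here with the human symbol and the ending "-like". The annotation rates this similarity as moderate for SLC4A4-like, SLC8A3-like, SLC12A4-like and SLC12A7-like and as weak for all the others. Their names and classes are therefore uncertain.

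Total RNA came from whole embryos of the AB wildtype strain, injected at the 1-cell stage with an antisense morpholino from Gene-tools and kept at 28 °C. Morphants received a morpholino against cardiac troponin T2 (tnnt2), a thin-filament protein of heart muscle, and the controls are described as wildtype in the sample titles but as injected with a control morpholino in the protocol. There were 3 arrays for controls and 3 for morphants at 36, 48 and 60 hours after fertilisation, 18 in all. One protocol text gives 32 hours for the earliest time, where the titles and the time label give 36. According to the design text the tnnt2 morpholino prevents cardiac development. The titles speak of 3 groups of embryos behind each kind of RNA, each group pooling equal numbers from every parent pair, and nothing says that the arrays stand for separate injections. The p-values therefore measure the spread between these arrays, which may be technical.

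Solute carriers take up, export or exchange amino acids, sugars, organic acids, nucleosides, metals and inorganic ions across the plasma membrane, and one family, the mitochondrial carriers, links the matrix with the cytosol. Many of them are secondary transporters, driven by the sodium gradient that Na+/K+ ATPase maintains, and they are most familiar in epithelia such as kidney and gut, in neurons and glia, and in the ion-transporting cells of fish skin. In a zebrafish embryo of this age, oxygen reaches the tissues largely by diffusion, so that embryos without circulation stay alive over these stages.

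As deposited, the log2 array medians ran from 1.19 to 3.86 and moved with time. They were 3.72 to 3.86 on the control arrays at 48 hours, 1.48 to 3.38 at 36 hours and 1.19 to 2.45 at 60 hours. On the morphant arrays they were 2.72 to 3.33 at 36 hours and 2.19 to 2.56 at 60 hours. At 48 hours the morphant arrays had medians of 3.86, 2.79 and 2.71. Brightness at that time therefore also differed between morphants and controls, and among the morphant arrays. Values were quantile normalised, all differences are relative to the other probe sets, and time and any batch of arrays cannot be told apart. The part of array brightness left in the morphant minus control differences after normalisation was not tested. The authors' standard error of a value had a median of 0.83 on the first control array at 36 hours and of 0.27 to 0.57 on the others. The lowest correlation between arrays of a group was 0.83 in controls at 36 hours and 0.89 or more in the other groups. The targeted gene tnnt2a differed between morphants and controls by -0.02, -0.02 and -0.31 at the 3 times (limma, adjusted p = 0.992, 0.999 and 0.744), and a blocked transcript need not change in level. All 32 probe sets of 8 lists of tissue markers (skeletal muscle, neurons, epidermis, erythroid cells, heart, lens, liver and yolk, retina) were above the level needed for testing. The mean log2 level of the 4 retina markers lay between 3.29 and 3.99 on the control arrays and between 0.52 and 1.47 on the morphant arrays at 60 hours, and 2 of the 4 were called lower. Besides tnnt2a, the heart list held myl7, with mean log2 levels of 5.07, 5.16 and 4.63 in controls at the 3 times. In morphants these means were 5.48, 5.40 and 5.31, lower than in controls at none of the times. In whole-embryo RNA, fewer cells of a type and less RNA per cell cannot be told apart.

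By the family number in their annotation, 8 of the 27 members belonged to families that move inorganic ions and 5 to the mitochondrial carriers. Families for organic anions or cations held 4, for amino acids 3, for sugars 3, for phosphate or phosphate esters 2, for metals 1 and for nucleosides 1. The family number does not fix what a member moves. In the amino acid class slc6a3 is the dopamine transporter gene, and slc3a2a encodes a heavy chain shared by several exchangers. A pair of the ion members are not carriers. The probe set similar to SLC4A1AP stands for an adaptor protein that binds an anion exchanger, and nherf1a encodes a scaffold protein that regulates a sodium/proton exchanger. A probe set annotated as slc39a1 carries an accession whose current symbol is slc40a1, the gene of the iron exporter ferroportin. A probe set annotated as weakly similar to human SLC9A7 is named slc9a8 here because the authors' list of probe sets lower in morphants at 48 hours names it so. Another weakly similar probe set is named slc12a8 through an EST clone.

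Of the 27 members, 21 had a mean log2 level of at least 0.62, the 25th percentile of all probe sets, and were tested. The other 6 were slc6a3, SLC4A1AP-like, slc12a8, slc25a14, SLC21A14-like and slc34a2a. The authors' standard error of a single array value had a median of 0.27 over the tested members and 1.53 over the untested ones.

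**Figure D1:**
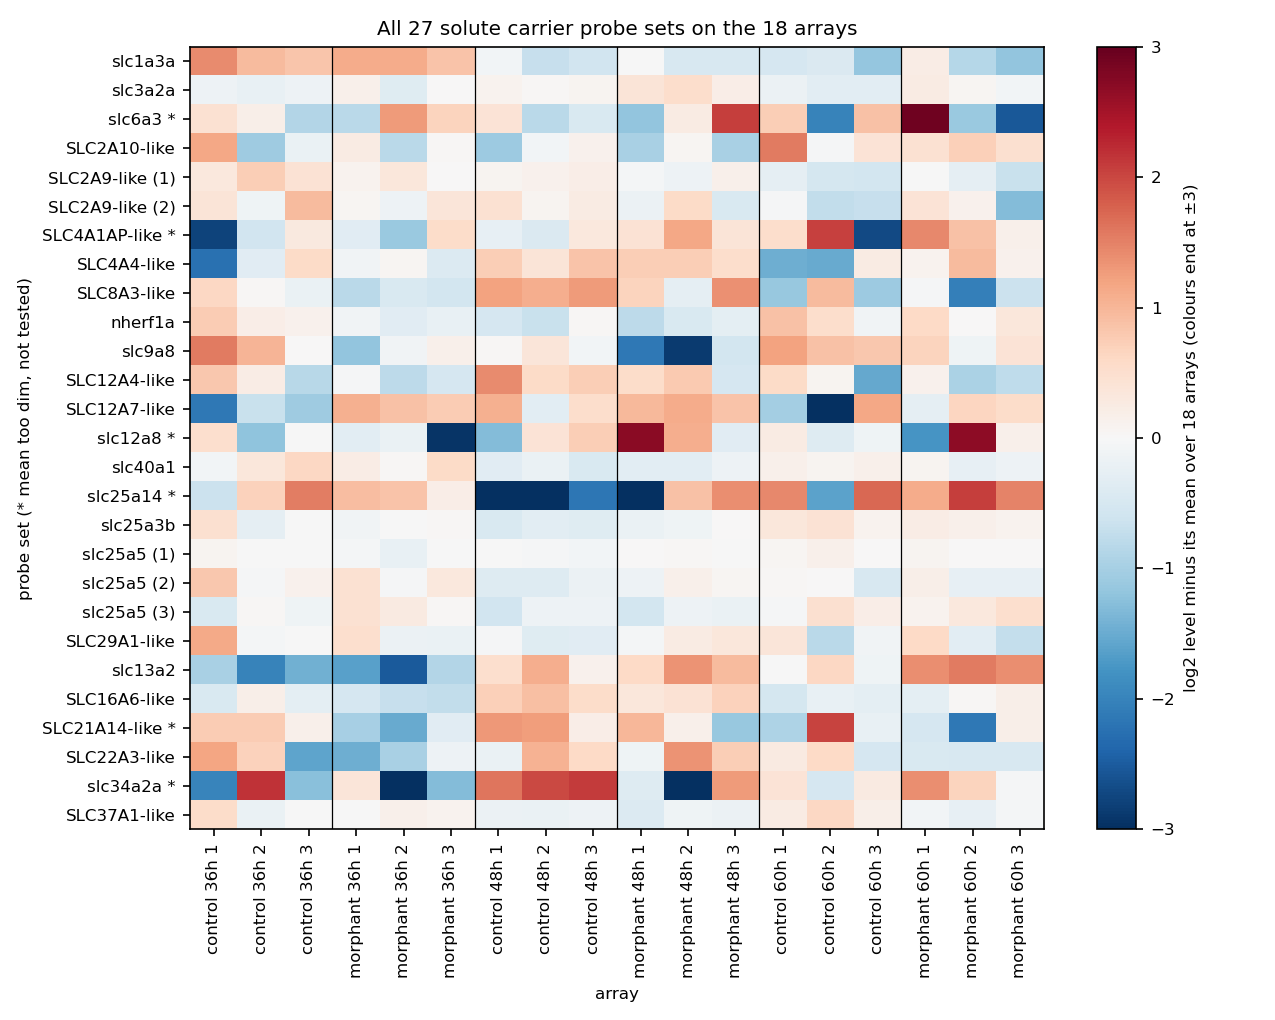
Colour shows the log2 level of each of the 27 solute carrier probe sets on each of the 18 arrays after subtraction of that probe set's mean over all arrays. The rows of slc1a3a and slc13a2 change colour between 36 and 48 hours in both kinds of embryo, and the 6 rows marked with an asterisk, whose means were too dim to test, scatter between arrays of one group.

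At single times no member was called between morphants and controls. With limma and a threshold of adjusted p under 0.05 over all 11626 probe sets tested, 0 of 21 members were called at 36 hours, where 0.181% of all probe sets were. The count was 0 of 21 at 48 hours, against 0.568% of all probe sets, and 0 of 21 at 60 hours, against 0.920%. At an unadjusted p under 0.05 there were 4 members at 36 hours, 1 at 48 hours and 4 at 60 hours. How many of all probe sets passed that unadjusted level was not counted, so these numbers say nothing about the members as a set. With the 3 times averaged, 1 member (4.76%) was called, the sodium/proton exchanger gene slc9a8, which was lower in morphants, against 4.81% of all probe sets, 2.35% of them lower. The F-test of whether the difference changed between times called 0 members, against 0.0258% of all probe sets. It gave 2 members an unadjusted p under 0.05, again without a count over all probe sets.

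The median difference between morphants and controls over the 21 members was -0.14, 0.01 and 0.04 on the log2 scale at 36, 48 and 60 hours. Over all probe sets tested these medians were 0.01, 0.01 and -0.00. At 36 hours 4 of the 21 differences were positive, and at 48 and 60 hours 11 were. The 95% interval of the difference lay wholly within 1 log2 unit of 0 for 11 members at 36 hours, 11 at 48 hours and 12 at 60 hours, so a change of 1 log2 unit or more was not excluded by the interval for the others. Standard errors of a difference at 1 time ran from 0.07 for the first probe set of slc25a5 to 0.89 for SLC12A7-like. All 3 morphant arrays lay on one side of all 3 control arrays for 5 members at 36 hours (2 higher, 3 lower), 4 at 48 hours (3 higher, 1 lower) and 5 at 60 hours (2 higher, 3 lower). Over all probe sets tested, such separation was seen for 13.9% (6.93% higher, 6.93% lower) at 36 hours, 24.9% (13.1% and 11.8%) at 48 hours and 20.2% (8.89% and 11.3%) at 60 hours.

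**Figure D2:**
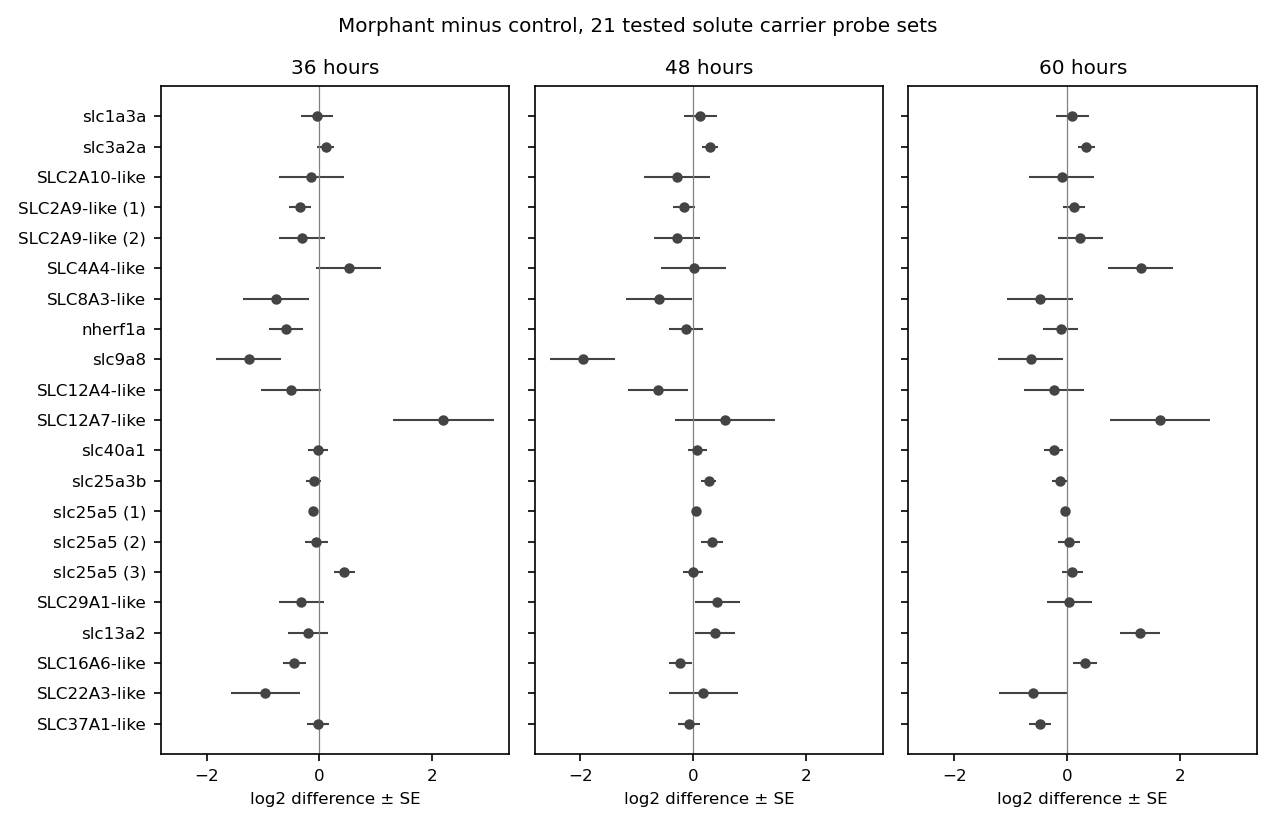
Points give the morphant minus control difference in log2 level for each of the 21 tested members at 36, 48 and 60 hours, with bars of 1 standard error from the limma fit. No member was called at a single time; slc9a8 lies below 0 in all 3 panels (-1.25, -1.96 and -0.65), and slc13a2 moves from -0.21 to 0.39 to 1.29.

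Among the ion carriers, slc9a8 encodes a member of the family that exchanges sodium for protons, known in mammals from the Golgi apparatus. At 36 hours its log2 level was 2.92, 2.39 and 1.38 on the control arrays and 0.17, 1.26 and 1.5 on the morphant arrays. At 48 hours it was 1.39, 1.72 and 1.27 in controls and -0.78, -1.52 and 0.81 in morphants. At 60 hours it was 2.57, 2.23 and 2.17 in controls and 2.04, 1.23 and 1.76 in morphants. The morphant arrays were lower than all control arrays at 48 and 60 hours, and at 36 hours the groups overlapped through the lowest control array and the highest morphant array. Averaged over the times the difference was -1.29 ± 0.33 (SE; limma, adjusted p = 0.0316). No fold is given, since the morphant mean at 48 hours lay under 0.62. At single times the differences were -1.25 ± 0.57, -1.96 ± 0.57 and -0.65 ± 0.57 (adjusted p = 0.361, 0.150 and 0.551). The call rested on a small margin: leaving out 1 of the 18 arrays gave differences from -1.49 to -1.11 with limma adjusted p from 0.0124 to 0.0741, and 10 of the 18 omissions ended it. The values as deposited gave -1.42 (adjusted p = 0.443). In the authors' deposited table for 48 hours the log2 ratio of this probe set was -2.08, with a probability of a positive log ratio of 0.00407, and its name comes from that table, so it is not independent of the comparison at 48 hours. That table put 5.12% of all probe sets past the authors' limits in the same direction, and the authors' deposited tables for 36 and 60 hours gave this probe set ratios of -0.04 and -0.00. The authors' ratios come from another method and cannot be read as limma differences. At 60 hours they were 0.03 for SLC12A7-like and 1.60 for slc13a2, where the limma differences were 1.64 and 1.29.

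SLC12A7-like, similar to a human potassium-chloride cotransporter, had the largest difference of any member at 36 hours. Its log2 level was -1.10, 0.37 and -0.04 on the control arrays and 2.09, 1.92 and 1.80 on the morphant arrays. The groups did not overlap, and all control values were below the level needed for testing. The difference was 2.20 ± 0.89 and did not pass (limma, adjusted p = 0.331). At 48 hours control arrays read 2.10, 0.72 and 1.55 and morphant arrays 2.01, 2.14 and 1.89. At 60 hours control arrays read 0.02, -3.13 and 2.20 and morphant arrays 0.76, 1.68 and 1.57, so that a single control array lay above and another far below all morphants. The average difference was 1.46 ± 0.51 (adjusted p = 0.0949). Leaving out 1 of the 18 arrays gave average differences from 0.999 to 1.88, with limma adjusted p from 0.0137 to 0.169. The smallest difference came without control array 2 at 60 hours, which read -3.13 and had the lowest deposited median of all arrays, 1.19. The largest came without control array 3 at 60 hours, which read 2.20, and it passed (adjusted p = 0.0137).

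SLC4A4-like resembles a human sodium bicarbonate cotransporter. On the 60-hour arrays it was 0.37, 0.31 and 2.08 in controls and 1.93, 2.78 and 1.96 in morphants, with an overlap through 1 control array. The difference was 1.30 ± 0.58 (limma, adjusted p = 0.254). At 36 hours it was 0.52 ± 0.58 (adjusted p = 0.686) and turned to -0.27 without the first control array, which read -0.43 against 1.48 and 2.41 on the other two. SLC12A4-like, similar to another potassium-chloride cotransporter, differed by -0.63 ± 0.53 at 48 hours (adjusted p = 0.833), and SLC8A3-like, similar to a sodium/calcium exchanger, by -0.76 ± 0.59 at 36 hours (adjusted p = 0.552). The scaffold gene nherf1a read 3.35, 2.79 and 2.71 in controls and 2.49, 2.24 and 2.35 in morphants at 36 hours. Its arrays did not overlap, and the difference of -0.59 ± 0.30 did not pass (adjusted p = 0.404).

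Among the carriers of organic ions, slc13a2 encodes a sodium-coupled transporter of dicarboxylates such as succinate and citrate, known from mammalian kidney and intestine. At 60 hours its log2 level was 4.44, 5.08 and 4.32 on the control arrays and 5.85, 6.01 and 5.84 on the morphant arrays. The morphant arrays were all higher than the highest control array and lay close together. The difference was 1.29 ± 0.35, 2.45-fold, with a 95% interval from 0.55 to 2.03, and it did not pass over all probe sets (limma, adjusted p = 0.0931). It was the smallest adjusted p of any member at 60 hours. At 36 hours controls read 3.48, 2.44 and 3.00 and morphants 2.82, 1.93 and 3.56, and at 48 hours controls read 4.96, 5.53 and 4.57 and morphants 5.04, 5.79 and 5.40. The groups overlapped at both earlier times, with differences of -0.21 ± 0.35 and 0.39 ± 0.35 (adjusted p = 0.806 and 0.858). The F-test between times gave an unadjusted p of 0.0253 (limma, adjusted p = 0.603). In the authors' deposited table for 60 hours its log2 ratio was 1.60 with a probability of a positive log ratio of 1, and 4.35% of all probe sets passed the authors' limits in that direction. Fitted on the 6 arrays of 60 hours alone the difference was 1.31 and passed (limma, adjusted p = 0.0362). Without the dimmest control arrays of 36 and 60 hours, an alternative chosen after seeing the data, it was 1.49 and passed (adjusted p = 0.0461). Leaving out each of the 6 arrays of 60 hours gave 1.14 to 1.51, and none of these passed (limma, adjusted p from 0.0821 to 0.322).

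SLC16A6-like is similar to a member of the monocarboxylate transporter family. At 36 hours it read 3.19, 3.83 and 3.37 in controls and 3.16, 2.98 and 2.92 in morphants, which lay just below all controls. Over the 3 times its differences were -0.44 ± 0.21, -0.23 ± 0.21 and 0.32 ± 0.21 (limma, adjusted p = 0.369, 0.849 and 0.417). SLC22A3-like, similar to an organic cation transporter, differed by -0.96 ± 0.60, 0.18 ± 0.60 and -0.60 ± 0.60 at the 3 times (adjusted p = 0.479, 0.986 and 0.604), and its control arrays at 36 hours ranged from 0.19 to 2.94.

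Among the amino acid carriers, the gene slc3a2a, which encodes the heavy chain shared by several amino acid exchangers, read 5.31, 5.24 and 5.28 in controls and 5.60, 5.72 and 5.41 in morphants at 48 hours. At 60 hours it read 5.03, 4.89 and 4.88 in controls and 5.45, 5.26 and 5.12 in morphants. The morphant arrays were higher without overlap at both times, by 0.30 ± 0.15 and 0.34 ± 0.15, and on average by 0.25 ± 0.09, but none of these passed (limma, adjusted p = 0.524, 0.248 and 0.0880). On the deposited scale, where the median of all tested probe sets differed by -0.57 at 48 hours, the slc3a2a difference was -0.22, or 0.35 relative to that median. The related slc3a2b, one of the genes left out of the set, was higher on average by 0.46 ± 0.11 and passed (limma, adjusted p = 0.0209). Over the same average slc11a2, slc4a1a and slc25a37 differed by -0.06, 0.11 and 0.44 (adjusted p = 0.801, 0.358 and 0.683).

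The mitochondrial carrier gene slc25a5, for an ADP/ATP translocase, had 3 probe sets. The first read 9.63 to 10.01 over all 18 arrays and differed by -0.12, 0.05 and -0.03 at the 3 times. The probe set numbered 3 read 5.04, 5.53 and 5.36 in controls and 5.95, 5.77 and 5.54 in morphants at 36 hours. The lowest morphant array lay barely above the highest control array, and the difference of 0.44 ± 0.18 did not pass (limma, adjusted p = 0.337). The second probe set differed by 0.33 ± 0.20 at 48 hours (adjusted p = 0.668), and slc25a3b, the mitochondrial phosphate carrier gene, by 0.27 ± 0.14 (adjusted p = 0.531). On the deposited scale they were -0.10 and -0.06, or 0.47 and 0.51 relative to the median of all probe sets. At 60 hours SLC37A1-like, similar to an exchanger of sugar phosphates, read 4.19, 4.57 and 4.12 in controls and 3.85, 3.69 and 3.89 in morphants. The morphant arrays were all lower, by -0.48 ± 0.20 (limma, adjusted p = 0.222). The iron exporter gene slc40a1 differed by -0.24 ± 0.17 at that time (adjusted p = 0.466), and by 0.09 on the deposited scale, where the median of all probe sets differed by 0.39.

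The sugar and nucleoside carriers and the glutamate transporter gene slc1a3a showed no separation at any time. The differences of slc1a3a were -0.04 ± 0.29, 0.12 ± 0.29 and 0.09 ± 0.29, with intervals that together ran from -0.65 to 0.73. SLC2A10-like and both SLC2A9-like probe sets, similar to sugar and urate transporters of the glucose transporter family, differed by -0.35 to 0.24, and SLC29A1-like, similar to a nucleoside transporter, by -0.32, 0.43 and 0.04.

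Among the 6 untested members, slc25a14, of the family of mitochondrial uncoupling proteins, read -2.96, -3.47 and -2.09 in controls at 48 hours and -3.26, 0.95 and 1.46 in morphants, so that 1 morphant array was as low as the controls. That array had a deposited median of 3.86, where the control arrays had 3.72 to 3.86. The other morphant arrays had 2.79 and 2.71. The part of array brightness in these slc25a14 values was not tested. The phosphate transporter gene slc34a2a read 1.36, 1.73 and 1.87 in controls and -0.63, -3.92 and 1.04 in morphants at 48 hours. The authors' deposited table for 48 hours gave slc25a14 a log2 ratio of 1.62 with a probability of 0.964, and slc34a2a one of -2.17 with a probability of 0.000173, and both passed the authors' limits of 1 log2 unit and of 0.8 or 0.2 for the probability. At that time 0.355% of all probe sets passed in the higher and 5.12% in the lower direction. On the deposited scale the median of all tested probe sets differed by -0.57 at 48 hours. Whether the authors' ratios carry this shift was not tested. The dopamine transporter gene slc6a3 ran from -4.26 to 1.19 over the 18 arrays, and on this scale values that dim do not order the groups. SLC4A1AP-like and slc12a8 were as scattered, from -3.95 to 0.88 and from -6.17 to -0.52, and SLC21A14-like, similar to an organic anion transporter, ran from -2.17 to 2.0.

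**Figure D3:**
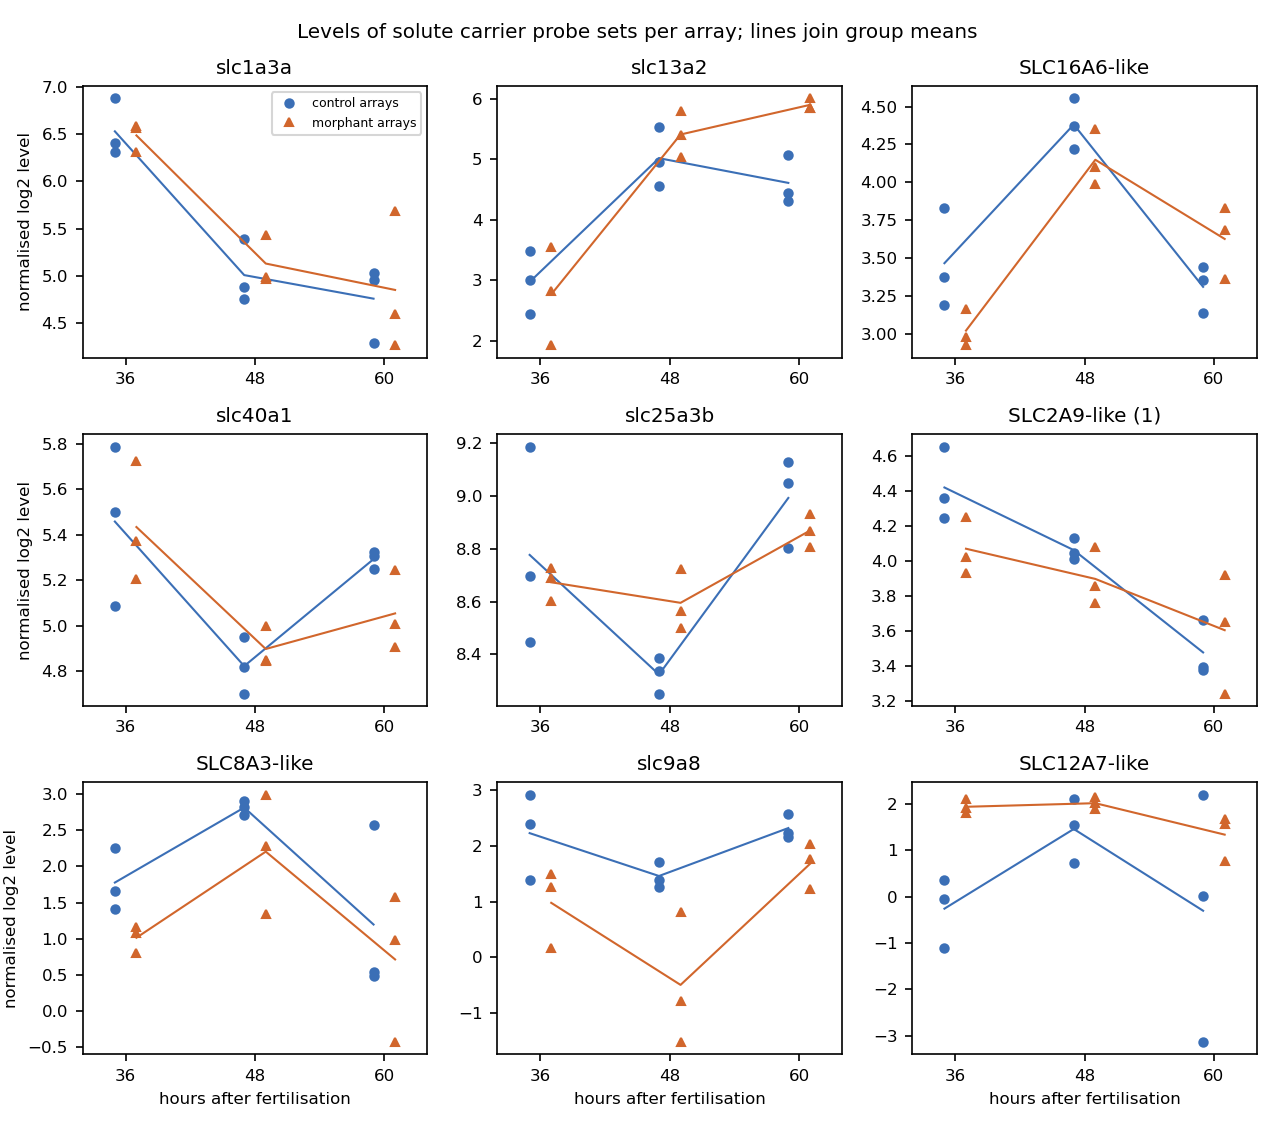
Normalised log2 levels of 9 members are plotted against hours after fertilisation, with 1 point per array (3 controls and 3 morphants at each time) and lines through the group means. In both kinds of embryo slc1a3a lies lower and slc13a2 higher at 48 hours than at 36 hours without overlap, and the control arrays of SLC12A7-like at 60 hours spread from -3.13 to 2.20.

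Levels of several members changed with time, and the largest called changes from 36 to 48 hours were shared by controls and morphants. Changes that were not called were not all shared. SLC12A7-like, for example, changed by 1.72 in controls and by 0.08 in morphants over that step. From 36 to 48 hours 6 of 21 members (28.6%) were called in controls, 2 higher and 4 lower, where 22.6% of all probe sets were called, 11% higher and 11.6% lower. In morphants, on other arrays, 5 of 21 (23.8%) were called over the same step, 2 higher and 3 lower, against 15.7% of all probe sets, 7.99% higher and 7.70% lower. The change had the same sign in controls and morphants for 19 of the 21 members (90.5%), and for 75.6% of all probe sets tested. Called in both with the same sign were 4 of the 21 members, and 1126 of all 11626 probe sets tested. Across the 21 members the Pearson correlation of the 2 sets of changes was 0.81, against 0.70 across all 11626 probe sets; the members are probe sets on shared arrays, not replicates. As deposited, the median of all tested probe sets moved by 0.92 in controls and by 0.10 in morphants over this step.

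The dicarboxylate transporter gene slc13a2 rose most. With the values already given, all 48-hour arrays lay above all 36-hour arrays in both kinds of embryo. It rose by 2.05 ± 0.35 in controls, 4.13-fold, and by 2.64 ± 0.35 in morphants, 6.25-fold (limma, adjusted p = 0.000774 and 8.58e-05). From 36 to 60 hours it rose by 1.64 ± 0.35 in controls, 3.11-fold, and by 3.13 ± 0.35 in morphants, 8.78-fold (adjusted p = 0.00349 and 1.27e-05). From 48 to 60 hours the controls changed by -0.41 ± 0.35 and the morphants by 0.49 ± 0.35, neither past the threshold (adjusted p = 0.408 and 0.536). The difference between the 36-to-60-hour changes was 1.5 ± 0.50, with an unadjusted p of 0.00779 and an adjusted p of 1. As deposited, where the median of all probe sets moved by -0.83, the control rise to 60 hours was 0.92 and was not called (adjusted p = 0.146).

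The gene slc1a3a, whose mammalian counterpart takes up glutamate into astrocytes and radial glia, had the largest called fall from 36 to 48 and from 36 to 60 hours in both kinds of embryo. At 36 hours it read 6.88, 6.40 and 6.30 in controls and 6.56, 6.58 and 6.31 in morphants. At 48 hours the values were 5.39, 4.76 and 4.88 in controls and 5.44, 4.97 and 4.99 in morphants. At 60 hours they were 4.96, 5.03 and 4.29 in controls and 5.69, 4.61 and 4.27 in morphants. Every array at 48 and 60 hours was lower than every array at 36 hours. From 36 to 48 hours it fell by 1.52 ± 0.29 in controls, 2.86-fold, and by 1.35 ± 0.29 in morphants, 2.55-fold (limma, adjusted p = 0.00152 and 0.00456). From 36 to 60 hours the changes were -1.77 ± 0.29 and -1.63 ± 0.29 (adjusted p = 0.000401 and 0.00101), and the difference between these changes was 0.14 ± 0.41. On the values as deposited the falls to 48 hours were -1.0 and -1.28 and were not called (adjusted p = 0.0827 and 0.166). All 4 neuron marker probe sets (elavl3, gap43 and snap25b) were called higher over this step in controls and 2 of the 4 in morphants. Their mean log2 level lay between 3.90 and 4.99 on the 36-hour and between 5.52 and 5.83 on the 48-hour control arrays. On the morphant arrays it lay between 4.57 and 4.72 and then between 5.5 and 5.63. At 60 hours it lay between 4.53 and 5.07 on the control and between 4.44 and 5.59 on the morphant arrays, and the markers moved apart. In controls the means at 48 and 60 hours were 5.21 and 2.84, and 6.00 and 4.31, for elavl3. They were 5.39 and 6.21 for snap25b and 6.03 and 5.99 for gap43. The part of neuron number in the level of slc1a3a was not tested.

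SLC16A6-like was highest at 48 hours. Controls read 4.37, 4.55 and 4.22 and morphants 3.99, 4.10 and 4.35, above all 36-hour arrays of their own kind. It rose by 0.91 ± 0.21 in controls and 1.13 ± 0.21 in morphants (limma, adjusted p = 0.00454 and 0.00130). At 60 hours controls read 3.14, 3.44 and 3.36 and morphants 3.36, 3.69 and 3.83. In controls this was a fall by 1.07 ± 0.21 (adjusted p = 0.00173), while the morphant change of -0.52 ± 0.21 did not pass (adjusted p = 0.216). The difference between the 36-to-60-hour changes, 0.76 ± 0.29, did not pass either (unadjusted p = 0.0175, adjusted p = 1).

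The iron exporter gene slc40a1 fell from 36 to 48 hours in both kinds of embryo. It read 5.09, 5.5 and 5.79 in controls and 5.37, 5.21 and 5.72 in morphants at 36 hours, and 4.82, 4.95 and 4.70 in controls and 4.85, 4.85 and 5.0 in morphants at 48 hours. The arrays of the 2 times did not overlap. The falls were -0.63 ± 0.17 in controls and -0.54 ± 0.17 in morphants (limma, adjusted p = 0.0146 and 0.0441). The control value was 0.04 on the values as deposited, where the median of all probe sets moved by 0.92, and -0.88 relative to that median. It lost its call without control array 3 at 36 hours or at 48 hours (adjusted p = 0.0650 and 0.0577), and the morphant call was lost under 5 of 6 omissions.

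Among the tested mitochondrial carriers, slc25a3b in controls fell by 0.45 ± 0.14 from 36 to 48 hours and rose by 0.67 ± 0.14 from 48 to 60 hours (limma, adjusted p = 0.0229 and 0.00241). Its control arrays read 9.19, 8.45 and 8.70, then 8.25, 8.38 and 8.33, then 9.05, 9.13 and 8.80, so the 48-hour arrays lay below all others. On the deposited scale the steps were 0.05 and -0.54, or -0.87 and 1.15 relative to the median of all probe sets. Without the first control array at 36 hours the fall was -0.24 and not called (adjusted p = 0.104). In morphants the steps were -0.08 ± 0.14 and 0.27 ± 0.14 (adjusted p = 0.747 and 0.329). The probe sets of slc25a5 did not move alike. The second was called lower from 36 to 48 hours in controls (-0.62 ± 0.20, adjusted p = 0.0331), probe set 3 lower over that step in morphants (-0.55 ± 0.18, adjusted p = 0.0470) and higher from 48 to 60 hours in controls (0.51 ± 0.18, adjusted p = 0.0488). The first was not called in any comparison, and its changes in either kind of embryo ran from -0.06 to 0.14. It read 9.63 to 10.01 over all arrays, near the level of an actc1b marker probe set (10.45 in controls at 36 hours). Whether a level this high limits its changes was not tested. The calls of probe sets 2 and 3 were lost under several omissions of an array, with -0.36 for probe set 2 without the first control array at 36 hours (adjusted p = 0.162). The rise of probe set 3 was -0.96 on the values as deposited, where the median of all probe sets moved by -1.69, and 0.74 relative to that median. The untested slc25a14 had control means of 0.60, -2.84 and 0.59 and morphant means of 0.73, -0.28 and 1.63 at the 3 times. Its control arrays at 48 hours lay below all control arrays at the other times.

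From 48 to 60 hours 5 of 21 members (23.8%) were called in controls, 2 higher and 3 lower, against 26.4% of all probe sets, 13.5% higher and 12.9% lower. In morphants 0 of 21 were called with limma, against 0.955% of all probe sets. At an unadjusted p under 0.05 there were 5, without a count over all probe sets. Besides SLC16A6-like the lower members in controls were SLC2A9-like (1) and SLC8A3-like. The former read 4.24, 4.65 and 4.36 at 36 hours, 4.01, 4.05 and 4.13 at 48 hours and 3.66, 3.39 and 3.38 at 60 hours in controls. Its arrays were lower at each later time without overlap. It fell by 0.58 ± 0.19 over the later step and fell by 0.94 ± 0.19 over both (limma, adjusted p = 0.0345 and 0.00247). In morphants the change from 36 to 60 hours was -0.46 ± 0.19 (adjusted p = 0.142). SLC8A3-like fell by 1.62 ± 0.59 in controls over the later step (adjusted p = 0.0490), from 2.83, 2.70 and 2.91 to 0.49, 2.57 and 0.54. A single control array at 60 hours, the second and the dimmest as deposited, stayed near the 48-hour level. In morphants the change was -1.49 ± 0.59 (limma, adjusted p = 0.215). The calls of both members over this step were lost under 5 of the 6 omissions of a control array.

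Over the whole span from 36 to 60 hours 3 of 21 members (14.3%) were called in controls, 1 higher and 2 lower, against 18% of all probe sets, 9.57% higher and 8.40% lower. They were slc13a2, higher, and slc1a3a and SLC2A9-like (1), lower. In morphants 2 (9.52%) were called, slc13a2 and slc1a3a, against 11.8% of all probe sets, 6.86% higher and 4.98% lower. The difference between the morphant and the control change called 0 members with limma, against 0.00860% of all probe sets. At an unadjusted p under 0.05 there were 2 (slc13a2 and SLC16A6-like), without a count over all probe sets. These comparisons share the 36-hour and 60-hour arrays with the steps above.

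**Figure D4:**
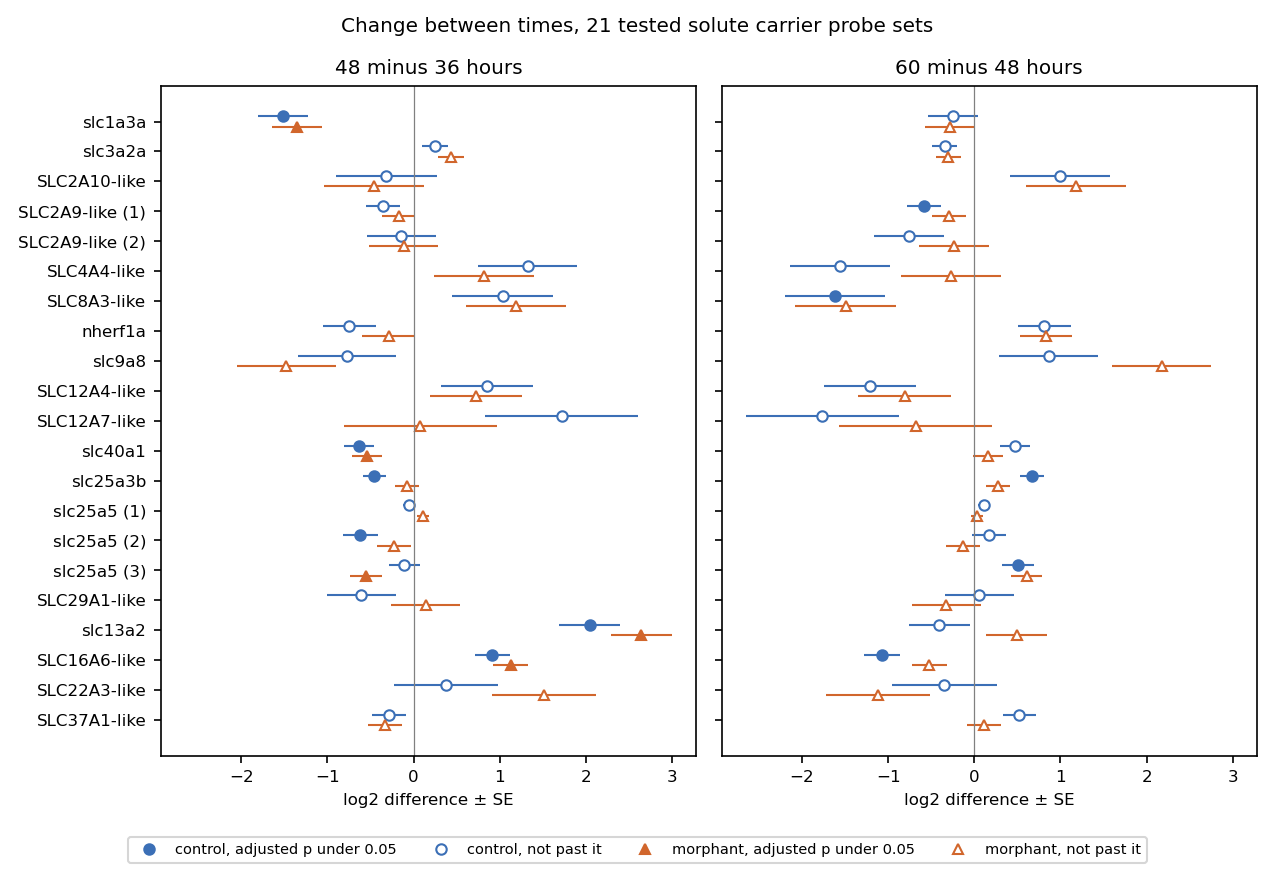
Changes in log2 level from 36 to 48 hours and from 48 to 60 hours are drawn for the 21 tested members, with bars of 1 standard error, circles for controls and triangles for morphants. Filled symbols passed a limma adjusted p under 0.05; slc13a2 (2.05 and 2.64), SLC16A6-like (0.91 and 1.13), slc1a3a (-1.52 and -1.35) and slc40a1 (-0.63 and -0.54) are filled for both kinds of embryo at the first step, and no triangle is filled at the second.

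Transporters were also grouped by gene name into 5 lists, each for a supposed setting that was not tested here. The lists were matched over the members and over 47 further probe sets with a solute carrier symbol. The stress list (8 genes) matched no probe set. A symbol could be given to only 3828 of the 15617 probe sets, manufacturer controls included. Genes without a match may therefore still be on the array. The hypoxia list matched slc2a3a and slc16a3b, for a glucose and a lactate transporter. In slc2a3a the morphant minus control difference was 0.43 ± 0.18, 0.14 ± 0.18 and 0.38 ± 0.18 at the 3 times and 0.32 ± 0.11 on average (limma, adjusted p = 0.347, 0.927, 0.285 and 0.0841). In slc16a3b it was -0.20, -0.26 and -0.35 (adjusted p = 0.778, 0.911 and 0.546). The neuronal list matched slc1a3a (glial in mammals), the untested slc6a3 and slc6a1a, a GABA transporter gene. The slc6a1a mean in controls went from -0.54 at 36 hours to 3.54 at 48 hours and was called higher (4.09 ± 0.77, limma, adjusted p = 0.00132). The control mean of slc6a1a at 36 hours lay under 0.62, the level needed for testing, so the size of this rise is uncertain. The morphant change of slc6a1a over that step, 1.84 ± 0.77, did not pass (limma, adjusted p = 0.115).

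The kidney, gut and liver list matched 6 probe sets, of which slc34a2a, slc15a1b and slc5a12 were too dim to test and SLC22A3-like, slc22a7b.1 and slc10a2 were tested. Of these slc22a7b.1, for an organic anion transporter, rose by 1.88 ± 0.54 from 36 to 48 hours in controls (limma, adjusted p = 0.0195), and its morphant change was -0.37 ± 0.54 (adjusted p = 0.701). Its morphant minus control difference at 48 hours was -1.77 ± 0.54 and did not pass (adjusted p = 0.183). The bile acid transporter gene slc10a2 was called in no comparison. The ionocyte list, which took every slc26a gene by its name alone, matched SLC4A4-like, slc26a5 and slc26a11. Whether slc26a5 or slc26a11 stands for ionocytes was not tested. In controls slc26a11 fell by 2.52 ± 0.63 from 36 to 48 hours and rose by 2.46 ± 0.63 to 60 hours (limma, adjusted p = 0.00878 and 0.00929). Control means of slc26a11 were 2.18, -0.34 and 2.12 at the 3 times. The mean at 48 hours lay under 0.62, so the sizes of these steps and of the difference at 48 hours are uncertain. Its morphant means were 1.61, 1.49 and 1.44 at the 3 times, with steps of -0.11 ± 0.63 and -0.05 ± 0.63 (adjusted p = 0.932 and 0.974). At 48 hours the morphant minus control difference was 1.83 ± 0.63 and did not pass (adjusted p = 0.249). No member of the lists was called between morphants and controls. Of all probe sets 0.181%, 0.568% and 0.920% were called at the 3 times and 4.81% on average.

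Of all 47 further probe sets with a solute carrier symbol, 39 were tested. None was called between the kinds of embryo at a single time, and 1, slc25a43, was higher on average (0.54 ± 0.15, limma, adjusted p = 0.0483). Of all probe sets 0.181%, 0.568% and 0.920% were called at the 3 times. On average 4.81% were, 2.35% of all probe sets being lower. From 36 to 48 hours 7 of the 39 were called higher and 2 lower in controls, against 11% and 11.6% of all probe sets, and 2 higher and 0 lower in morphants, against 7.99% and 7.70%. Among 13 tested probe sets of Na+/K+ ATPase, the pump behind many of these carriers, the beta subunit gene atp1b1b was higher in morphants at 60 hours. The difference was 1.14 ± 0.24, 2.20-fold (limma, adjusted p = 0.0348), where 0.920% of all probe sets were called. At 36 and 48 hours 0 of the 13 were called, against 0.181% and 0.568% of all probe sets. From 36 to 48 hours 5 of the 13 rose and 2 fell in controls, where 11% of all probe sets were called higher and 11.6% lower. In morphants 6 rose and 1 fell, against 7.99% and 7.70% of all probe sets. The 6 probe sets of the proton ATPase, the 7 tested ATP-binding cassette transporters and the 2 aquaporins had 0 calls between morphants and controls. The shares of all probe sets were 0.181% to 0.920% at single times and 4.81% on average, so lists this short do not tell these families from the rest.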

How the data were processed

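Levels were measured on 18 Affymetrix zebrafish arrays, 3 in each of 6 groups. Per the deposited readme and file names, the authors computed log2 values per probe set with mmgMOS of the puma package, with a standard error for each, combined the 3 arrays of a group with pumaComb and gave log2 ratios and probabilities of a positive log ratio (PPLR) with pumaDE. Version, build and any scaling between arrays are not given in the sources used here, and the log base was read from the values. The authors' ratios may therefore carry shifts between arrays that the quantile normalised differences do not.

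The deposited log2 array values were quantile normalised after 115 manufacturer control probe sets were set aside. Testing was limited to the 11626 of 15502 probe sets whose mean reached percentile 25. limma 3.58.1 in R 4.3.3 fitted 6 group means with a mean-variance trend (lmFit, eBayes), 12 comparisons and Benjamini-Hochberg adjustment over all probe sets tested, with 12 residual degrees of freedom. The procedure was tested on simulated data. The number of arrays limits the precision.

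Where a group mean lay under the filter level, no fold is given. Named are all members called between morphants and controls, the largest called changes from 36 to 60 hours, the brightest member of each class, the 3 smallest p in each direction at each time, the left-out genes, and the members of 5 transporter lists; other members named were chosen after their values were seen. The members and lists were chosen with earlier results of these data known. Alternatives were the scaling, the filter, a replicate block, the arrays in the fit and the omission of each array. No sequences are shown.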

Additional observations from a re-analysis of the deposited data

How the results depend on the processing

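Of the values of single members, 541 kept direction and side of the threshold under an alternative, 69 lost and 5 gained a call, and 10 changed sign. Apart from the shift of the median of all probe sets on the deposited scale, the causes were not tested. Between morphants and controls at 60 hours the count of called members went from 0 to 1 under the replicate block, with only the compared arrays, and without both dimmest control arrays (the first of 36 and the second of 60 hours, an alternative chosen after seeing the data). That member was slc13a2 each time, with an adjusted p of 0.0248 under the replicate block. For the average the count went from 1 to 0 on the values as deposited, at the 50th percentile filter, which leaves slc9a8 untested, and without both dimmest control arrays, and to 2 under the replicate block (slc9a8 and slc13a2). Only the compared arrays gave 2 members for controls from 36 to 48 hours (slc1a3a and slc13a2). The values as deposited gave 19 for controls from 48 to 60 hours, where 81.7% of all probe sets were then called, 1 for morphants from 36 to 48 hours (3 with median-centred arrays) and 1 for morphants from 48 to 60 hours. Leaving out each array gave 0 to 0 members between morphants and controls at 36 and 48 hours, 0 to 1 at 60 hours and 0 to 2 for the average. It gave 4 to 6 for controls from 36 to 48 hours, 2 to 6 from 48 to 60 and 3 to 4 from 36 to 60 hours, and in morphants 3 to 4, 0 to 1 and 2 to 3. It gave 0 to 0 for the F-test and for the difference of changes. The average lost slc9a8 without the first or second control array of 48 or 60 hours, the first control or morphant array of 36 hours, the first or second morphant array of 48 hours, or morphant array 2 or 3 of 60 hours. Without control array 3 of 60 hours SLC12A7-like joined it, and was the 1 member called at 60 hours. For controls from 48 to 60 hours 2 members were left without the first or second array of 48 hours, and 3 without array 3 of 48 or array 2 of 60 hours. Morphants from 36 to 48 hours kept 3 without the first or second array of 48 hours, and slc9a8 was called from 48 to 60 hours without array 3. On the values as deposited 8 values changed sign, and all 8 kept their main sign relative to the median of all probe sets, which moved by 0.92 and -1.69 in controls over the 2 steps and by -0.57 and 0.39 between morphants and controls at 48 and 60 hours. In controls these were slc40a1 (0.0351) and slc25a3b (0.0476) from 36 to 48 hours and slc25a3b (-0.54) and slc25a5 (3) (-0.96) from 48 to 60 hours. Between morphants and controls they were slc3a2a (-0.22), slc25a3b (-0.0557) and slc25a5 (2) (-0.10) at 48 hours and slc40a1 (0.0858) at 60 hours. SLC4A4-like at 36 hours turned to -0.27 without the first control array and to -0.27 without both dimmest, and single omissions gave from -0.27 to 1.15. Same-numbered control and morphant arrays of a time deviated together in 8 of 9 pairs (r from -0.06 to 0.27, over 0.1 in 8), and 16 of 18 arrays correlated best with their own number, a hint from the data and not from the design. The average, the F-test and the difference of changes need all groups and were not fitted on compared arrays alone. Dim probe sets limit what can be seen: at 1 time a difference had a standard error of up to 0.89.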
